A study of Rattus norvegicus with 19 samples.

Results

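Splicing factor and heterogeneous nuclear ribonucleoprotein (hnRNP) genes were followed in livers of adult rats given pregnenolone 16α-carbonitrile (PCN). This steroid is an agonist of the pregnane X receptor in rodents. Members were all genes whose symbol begins with Srsf, Hnrnp, Snrp, Sf3a or Sf3b and that have a probe set annotated to that gene alone, which gave 47 of the 13811 genes with such a probe set. They comprised 10 SR protein genes, 18 hnRNP genes, 10 genes of small nuclear ribonucleoprotein (snRNP) proteins and 9 subunits of SF3a and SF3b. The rule goes by symbol, so genes named Snrnp did not enter.

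Treated rats received a single intraperitoneal injection of PCN at 100 mg/kg after a night without food, and control rats received corn oil after the same fast. All were killed 8 h after the injection. The labels give no strain, sex or exact age, and they call the arrays biological replicates without saying more about how the animals were sampled, so p-values measure the spread between these samples. RNA was hybridised to 2 Affymetrix array types, with 5 PCN and 5 corn oil arrays of the first type. The second had 5 PCN and 4 corn oil arrays, and the samples held no corn oil replicate 2 of that type. The labels do not say whether same-numbered arrays of both types came from the same liver. Values of both types are therefore not known to be independent. The stated question of the series is whether PCN engages hepatic genes beyond those of drug metabolism.

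Splicing removes introns from pre-mRNA in the spliceosome, whose snRNPs recognise the splice sites and the branch site. SR proteins bind exonic enhancers and generally favour the use of nearby splice sites, whereas many hnRNPs bind exonic or intronic silencers and oppose it, so that the balance between both families sets alternative exon choice. Sm proteins form the ring at the core of each spliceosomal snRNP, and SF3a and SF3b belong to the U2 snRNP, which engages the branch site.

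The treatment was visible in the targets of the receptor on the first array type. Cyp3a23-3a1, a steroid- and drug-oxidising cytochrome P450, averaged 13.79 ± 0.04 in PCN livers and 13.15 ± 0.25 in corn oil livers on the log2 scale (SD, n = 5 each; limma adjusted p = 0.00543). Cyp3a18, of the same subfamily, averaged 12.97 ± 0.26 in PCN livers and 11.65 ± 0.42 in corn oil livers (SD, n = 5 each; limma adjusted p = 0.00384). Hepatocyte markers were bright in both groups, with per-array means of 13.6 to 13.8 after PCN and 13.3 to 13.7 after corn oil. Of 39 tested markers of hepatocytes and other liver and blood cell types on the first array type limma called 0. At an unadjusted p below 0.05, 4 were higher and 3 lower, against 11.1% and 6.69% of all genes. Of 13 markers on the second type it called 0. At the unadjusted level 3 were higher and 2 lower, against 18.3% and 10.6% of all genes. The 3 red cell markers measured had negative log2 fold changes, with per-array means of 10.22 to 10.90 in PCN livers and 10.71 to 11.005 in corn oil livers. The 6 Kupffer cell and macrophage markers had positive ones, with per-array means of 10.68 to 11.38 in PCN livers and 10.58 to 11.02 in corn oil livers, and the part of these cell types in the results below was not tested. The corn oil 2 array of the first type stood apart in 2 controls. Its 3′ minus 5′ difference was 2.28 for the actin control and 2.02 for the GAPDH control, against 0.41 to 0.56 and 0.56 to 0.85 on the other 9 arrays. For the hexokinase control its difference of 0.82 lay within the 0.78 to 0.997 of the other arrays. In whole liver, fewer cells of a type and less RNA per cell cannot be told apart.

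At their brightest tested probe set, 21 of 37 member genes on the first array type changed by less than 0.2 on the log2 scale. This compared with 5865 of all 8073 genes. On the second type these counts were 10 of 16 member genes and 3311 of all 4688 genes. Limma called 3 member genes higher 8 h after PCN. Hnrnph1 rose 1.59-fold on the first array type, and Srsf4 rose 1.65-fold and Hnrnpa2b1 1.31-fold on the second. The Hnrnph1 call held in all 21 alternative settings, the Srsf4 call in 10 of 20 and the Hnrnpa2b1 call in 9 of 20. Both Hnrnpa2b1 probe sets of the first type were flat, with log2 fold changes of 0.03 and 0.00. No member was called lower. A called probe set is one with an adjusted p below 0.05 from limma, with Benjamini-Hochberg adjustment over the whole table, and a probe set was tested if its mean lay at or above the 30th percentile of its table. Of 76 member probe sets 70 passed, and 46 of the 47 genes were tested on at least 1 array type. Snrpn, an Sm protein gene of the B/B′ kind, had only a dim probe set of its own that was not tested.

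On the first array type 1 of 52 tested member probe sets was called higher (1.92%) and 0 lower, against 2.31% called higher and 0.945% called lower among all 11106 tested probe sets. At an unadjusted limma p below 0.05, 16 member probe sets were higher (30.8%) and 0 lower, against 11% and 6.71% of all probe sets. With each gene taken at its brightest tested probe set, 30 of 37 member genes had a positive log2 fold change with a median of 0.11, whereas 49.6% of all 8073 genes were positive with a median of -0.00. Groups did not overlap for 3 member probe sets, all higher after PCN, against 3.99% of all probe sets higher and 2.05% lower. The number of positive member genes depended on the scaling, and it was 22 when arrays were centred on the 100 probe sets common to both types, where the median of the members was 0.03 and that of all probe sets was -0.08. Without the PCN 2 array the called members were 4, namely Hnrnph1, Hnrnpab, Srsf2 and Snrpd3.

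On the second array type 2 of 18 tested member probe sets were called higher (11.1%) and 0 lower, against 3.76% called higher and 1.64% called lower among all 10693. At an unadjusted limma p below 0.05, 6 member probe sets were higher and 1 lower, against 13.2% and 14.1% of all probe sets. Of 16 member genes 11 had a positive fold change, with a median of 0.10 against -0.00 for all 4688 genes. Groups did not overlap for 3 member probe sets, Srsf4, Hnrnpa2b1 and Sf3a2, all higher after PCN, against 5.06% of all probe sets higher and 5.32% lower. When arrays of this type were centred on the common probe sets the median of all tested probe sets shifted to -0.31, the member median was -0.18 and 4 of 16 member genes were positive. The count of called members was 0 without any one of PCN 1, PCN 2, PCN 3, PCN 4, corn oil 1, corn oil 3 and corn oil 4, it was 1 (Srsf4) without corn oil 5, and it was 4 without PCN 5, namely Srsf4, Hnrnpa2b1, Hnrnpa3 and Hnrnph2.

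**Figure D1:**
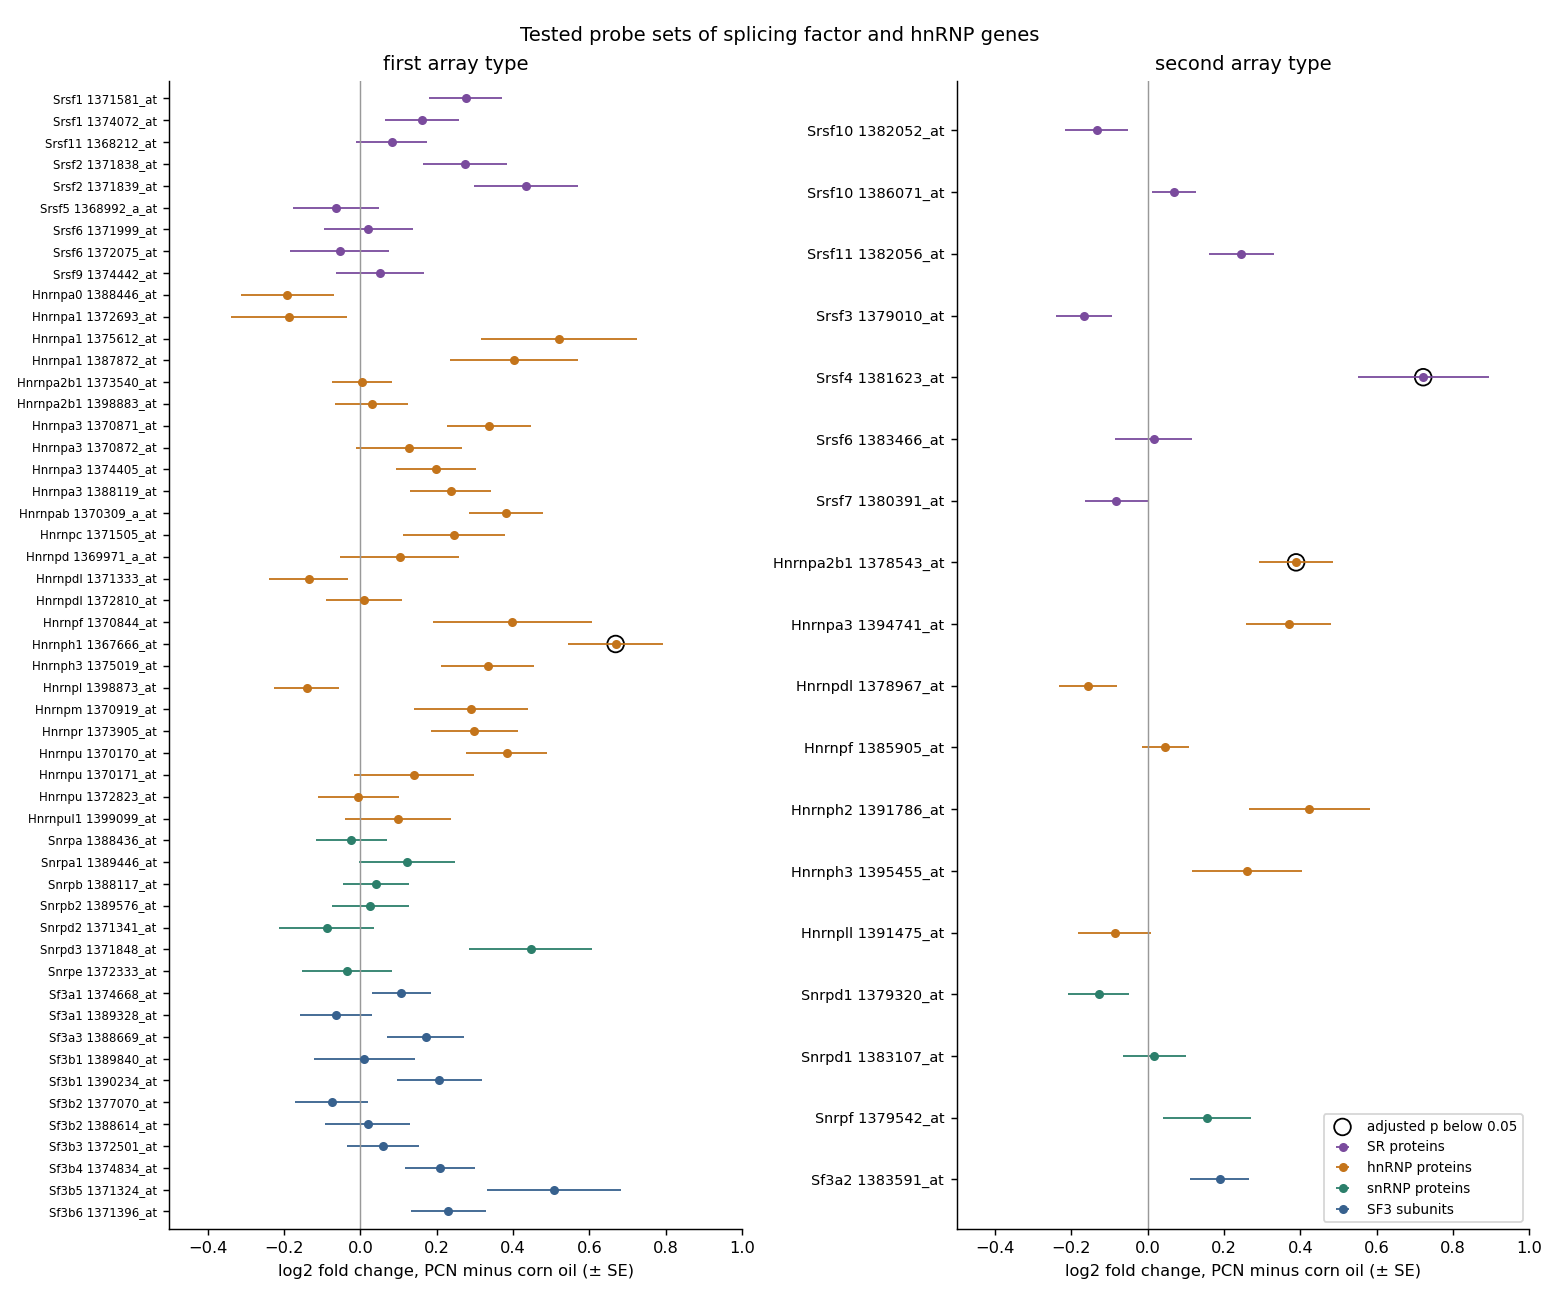
Log2 fold change (PCN minus corn oil, with the moderated SE) of each tested member probe set, ordered by class and gene, for the first array type (52 probe sets) and the second (18 probe sets). Circles mark the 3 called probe sets, Hnrnph1 at 0.67, Srsf4 at 0.72 and Hnrnpa2b1 at 0.39, and most other points lie between -0.19 and 0.5.

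The promoters of the 3 genes called higher are shown so that their sequence can be read beside the expression values. Each window is 300 bases around the annotated transcription start, from RefSeq on the rat assembly GRCr8, read 5′ to 3′ on the strand of the gene. Capitals mark matches on either strand to GGGCGG (the GC box), to CCAAT (the CCAAT box), to TATAAA (the TATA box) or to AGTTCA (the nuclear receptor hexamer repeated in pregnane X receptor elements). Hnrnph1 lies on the plus strand at chr10:35194383-35194682, Srsf4 on the plus strand at chr5:149345288-149345587, and Hnrnpa2b1 on the minus strand at chr4:81875837-81876136.
Hnrnph1: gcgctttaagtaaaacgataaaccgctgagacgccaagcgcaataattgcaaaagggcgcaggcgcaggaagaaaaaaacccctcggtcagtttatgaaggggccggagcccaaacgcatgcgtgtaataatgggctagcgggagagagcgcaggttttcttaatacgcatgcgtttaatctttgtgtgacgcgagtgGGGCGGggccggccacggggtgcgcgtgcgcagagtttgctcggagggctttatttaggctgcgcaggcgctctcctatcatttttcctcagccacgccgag
Srsf4: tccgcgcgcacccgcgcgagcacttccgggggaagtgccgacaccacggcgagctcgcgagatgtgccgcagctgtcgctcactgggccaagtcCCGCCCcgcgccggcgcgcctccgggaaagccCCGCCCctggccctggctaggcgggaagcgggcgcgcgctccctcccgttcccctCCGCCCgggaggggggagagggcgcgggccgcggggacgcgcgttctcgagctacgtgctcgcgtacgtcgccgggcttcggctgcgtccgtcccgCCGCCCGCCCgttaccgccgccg
Hnrnpa2b1: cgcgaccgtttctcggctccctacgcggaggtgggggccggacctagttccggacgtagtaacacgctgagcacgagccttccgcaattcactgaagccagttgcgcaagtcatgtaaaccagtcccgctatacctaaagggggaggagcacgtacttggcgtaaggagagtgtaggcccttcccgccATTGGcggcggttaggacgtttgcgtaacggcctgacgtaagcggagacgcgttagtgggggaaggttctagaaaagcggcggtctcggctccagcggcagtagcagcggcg
The Hnrnph1 window held 1 GC box at a GC content of 55.7%, the Srsf4 window held 5 GC boxes, of which the last 2 overlap, at a GC content of 78.3%, and the Hnrnpa2b1 window held 1 CCAAT match at a GC content of 61.0%. None of these 3 windows held TATAAA or AGTTCA. Promoters were listed for 45 of the 47 member genes. GGGCGG was found in 64.4% of these and in 34.9% of all 27457 promoters, CCAAT in 55.6% and 37.7%, TATAAA in 11.1% and 14.3%, and AGTTCA in 8.89% and 14.4%. The 27457 promoters are of all listed genes, more than the 13811 genes with a probe set of their own, so this background is not matched to the members. These are counts of letters in a fixed window.

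Among the SR proteins, Srsf4, a large member of the family that can activate or repress exons, had the largest increase of any member on the second array type. Its probe set 1381623_at read 11.18, 11.20, 11.33, 10.94 and 11.10 in PCN livers and 9.91, 10.27, 10.67 and 10.87 in corn oil livers on the log2 scale. All PCN arrays lay above all corn oil arrays, the PCN values were close together, and the corn oil values were spread over almost a whole log2 unit. The log2 fold change was 0.72 ± 0.17 (SE; limma adjusted p = 0.0361; higher in PCN, 5 of 5 arrays above every corn oil array). The call was kept without PCN 5 or corn oil 5 and lost without any other single array, with adjusted p of 0.0789, 0.0758, 0.0836 and 0.052 without PCN 1, 2, 3 and 4 and 0.0812, 0.0791 and 0.0726 without corn oil 1, 3 and 4. It was also lost with quantile normalization (0.52, adjusted p = 0.0686) and cyclic loess (0.45, adjusted p = 0.121).

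Srsf2, known as SC35, binds exonic enhancers and was read by a pair of probe sets on the first array type. The probe set 1371839_at read 9.38, 8.74, 9.05, 9.35 and 9.15 in PCN livers and 8.90, 8.40, 8.63, 8.78 and 8.80 in corn oil livers. The groups overlapped through PCN 2, and the log2 fold change of 0.43 ± 0.14 (SE) missed the threshold (limma adjusted p = 0.112), with a value of 0.53 (adjusted p = 0.0362) without PCN 2 and of 0.36 to 0.48 (adjusted p of 0.106 to 0.244) without any other single array. The brighter probe set 1371838_at had a log2 fold change of 0.27 ± 0.11 (SE; limma adjusted p = 0.214). Srsf1, the founding SR protein, had log2 fold changes of 0.28 ± 0.10 for 1371581_at (SE; limma adjusted p = 0.154) and 0.16 ± 0.10 for 1374072_at (adjusted p = 0.433).

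The lowest log2 fold change of any member on the second array type belonged to Srsf3, the smallest SR protein, which read 6.07, 5.93, 5.88, 5.88 and 6.06 in PCN livers and 6.09, 6.27, 5.98 and 6.18 in corn oil livers. The ranges overlapped, with only corn oil 4 inside the PCN range. The difference of -0.17 ± 0.07 (SE) missed the threshold (limma adjusted p = 0.166). Srsf11, an SR-related protein, had log2 fold changes of 0.25 on the second type (limma adjusted p = 0.0991) and 0.08 on the first (adjusted p = 0.696). Srsf5, Srsf6, Srsf7 and Srsf9 lay between -0.08 and 0.05 on either type. Over the class the median gene had a log2 fold change of 0.07 on the first type (6 genes) and -0.03 on the second (6 genes).

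**Figure D2:**
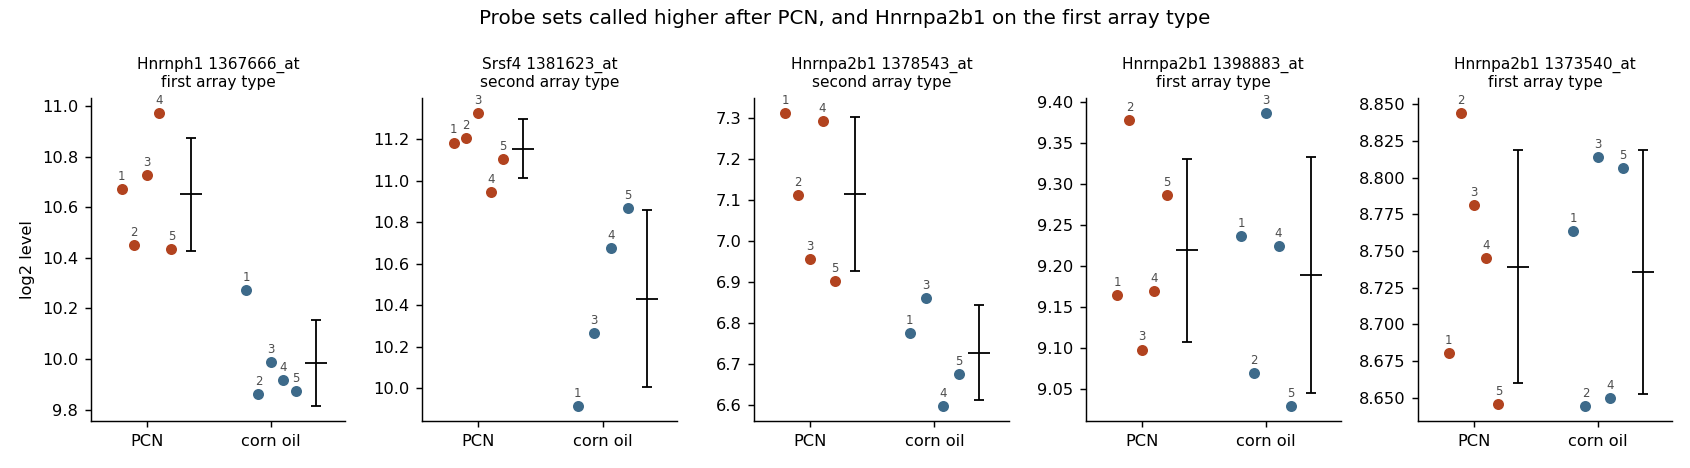
Log2 level on each array (points, numbered by replicate) of the 3 called probe sets and of both Hnrnpa2b1 probe sets on the first array type, with the mean and SD of each group as a bar and whiskers. The called probe sets have every PCN array above every corn oil array, while the Hnrnpa2b1 probe sets of the first type overlap fully, with log2 fold changes of 0.03 and 0.00.

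Among the hnRNP proteins, Hnrnph1 had the lowest adjusted p of all members. The protein binds runs of guanines in pre-mRNA and regulates inclusion of nearby exons. Its probe set 1367666_at read 10.67, 10.45, 10.73, 10.97 and 10.43 in PCN livers and 10.27, 9.86, 9.99, 9.92 and 9.87 in corn oil livers. The groups did not overlap, and the nearest arrays were PCN 5 and corn oil 1. The log2 fold change was 0.67 ± 0.12 (SE; limma adjusted p = 0.0147), and the gene was called in each of the 21 alternatives run on this probe set, with log2 fold changes of 0.59 to 0.74 and adjusted p of 0.0026 to 0.0474.

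The paralogues of Hnrnph1 had positive fold changes that missed the threshold. Hnrnph2, on the second type, read 8.19, 7.68, 7.46, 7.79 and 7.25 in PCN livers and 7.18, 7.47, 7.28 and 7.06 in corn oil livers. The overlap came from PCN 3 and PCN 5, and the log2 fold change was 0.42 ± 0.16 (SE; limma adjusted p = 0.121). It was 0.53 (adjusted p = 0.0377) without PCN 5, 0.29 (adjusted p = 0.206) without PCN 1, and 0.15 (adjusted p = 0.317) with centring on the common probe sets. Hnrnph3 had log2 fold changes of 0.33 on the first type (limma adjusted p = 0.175) and 0.26 on the second (adjusted p = 0.257). Hnrnpf, which binds guanine runs as well, had 0.40 on the first type (limma adjusted p = 0.354) and 0.05 on the second (adjusted p = 0.649). The Hnrnpf value of the first type rested on the corn oil 2 array, which read 8.97 where the other corn oil arrays read 10.04 to 10.17 and the PCN arrays 9.999 to 10.43. Without that array, whose 3′ minus 5′ differences are given above, it was 0.17 (adjusted p = 0.372).

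Hnrnpa2b1, which binds pre-mRNA and takes part in mRNA transport, gave unlike values on the array types. The probe set 1378543_at of the second type read 7.31, 7.11, 6.95, 7.29 and 6.90 in PCN livers and 6.77, 6.86, 6.596 and 6.67 in corn oil livers. Groups did not overlap, although PCN 5 lay only just above corn oil 3, and the log2 fold change was 0.39 ± 0.10 (SE; limma adjusted p = 0.0411; 95% interval 0.18 to 0.60). On the first type, 1398883_at read 9.16, 9.38, 9.10, 9.17 and 9.29 in PCN livers and 9.24, 9.07, 9.39, 9.22 and 9.03 in corn oil livers. Its groups overlapped fully, with a log2 fold change of 0.03 (95% interval -0.18 to 0.24; limma adjusted p = 0.896), and 1373540_at had 0.00 (95% interval -0.17 to 0.17; adjusted p = 0.983). The difference between array types was not tested, since the tables have different scales. The call on the second type was kept without PCN 5 alone among single arrays, and adjusted p was 0.0899, 0.0793, 0.0586 and 0.0804 without PCN 1, 2, 3 and 4 and 0.0891, 0.0546, 0.124 and 0.0783 without corn oil 1, 3, 4 and 5. It was also lost with no filter (adjusted p = 0.0509) and with centring on the common probe sets (0.11, adjusted p = 0.398).

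Further hnRNP genes had fold changes of either sign and did not pass the test. Hnrnpab, which binds RNA and single-stranded DNA, read 11.54, 11.23, 11.53, 11.74 and 11.47 in PCN livers and 11.13, 11.02, 11.17, 11.20 and 11.09 in corn oil livers. Its groups did not overlap, yet the log2 fold change of 0.38 ± 0.10 (SE) missed the threshold (limma adjusted p = 0.0543). Hnrnpab was called with the 50th percentile filter, the trimmed mean, quantile normalization, cyclic loess, no variance trend or array weights, and without PCN 2. It was not called with no filter, the common median, common centring, robust variances or the replicate block, or without any other single array. Hnrnpa3 was read by 5 probe sets with log2 fold changes of 0.34, 0.24, 0.20 and 0.13 on the first type and 0.37 on the second, of which the lowest limma adjusted p was 0.0741. Hnrnpa0 had the lowest log2 fold change on the first type, -0.19 ± 0.12 (SE; limma adjusted p = 0.451), and was -0.10 without the corn oil 2 array. Hnrnpl, which binds CA repeats, had -0.14 ± 0.08 (SE; adjusted p = 0.429), and Hnrnpdl, a relative of the AU-rich element binder Hnrnpd, had -0.16 ± 0.08 on the second type (SE; adjusted p = 0.2004). Over the class 14 of 16 genes were positive on the first type with a median log2 fold change of 0.27, and 5 of 7 on the second with a median of 0.26, which was -0.02 with centring on the common probe sets.

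Probe sets of a single gene were next set against each other, by testing the brightest minus every other probe set on each array over all such pairs of a table. Among 15 member pairs on the first array type limma called 0 (2 at an unadjusted p below 0.05), against 0.152% of all 1313 pairs called and 5.56% at the unadjusted level. Of the 2 member pairs on the second type limma called 0 as well (0 at an unadjusted p below 0.05), against 7.24% of all 1229 pairs called and 23.5% at the unadjusted level. Of 11 member genes with several tested probe sets on the first type, 6 had probe sets of both signs and 5 had positive values throughout.

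Hnrnpa1, an abundant shuttling protein that represses many exons, had the widest disagreement. The probe set 1375612_at read 8.39, 8.77, 8.93, 9.44 and 9.02 in PCN livers and 8.60, 8.72, 8.63, 7.86 and 8.14 in corn oil livers, or 0.52 ± 0.20 as a log2 fold change (SE; limma adjusted p = 0.207). The probe set 1372693_at read 8.20, 8.29, 8.31, 8.41 and 8.22 in PCN livers and 8.28, 9.13, 8.30, 8.25 and 8.40 in corn oil livers, a log2 fold change of -0.19 ± 0.15 (SE; adjusted p = 0.573). The groups of 1375612_at overlapped through PCN 1, and the negative value of 1372693_at came with a single high array, corn oil 2. The difference of the log2 fold changes was 0.71 ± 0.20 (SE; limma adjusted p = 0.366). Without corn oil 2 the fold change of 1372693_at was -0.02 and the difference of fold changes was 0.63 (adjusted p = 0.196). The third probe set, 1387872_at, had 0.40 ± 0.17 (SE; adjusted p = 0.239).

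Hnrnpu, a scaffold protein of the nuclear matrix that binds RNA and DNA, was read by 3 probe sets. The brightest, 1370170_at, read 11.10, 10.90, 10.85, 11.17 and 10.97 in PCN livers and 10.75, 10.71, 10.77, 10.48 and 10.37 in corn oil livers. These groups did not overlap, and the log2 fold change was 0.38 ± 0.11 (SE; limma adjusted p = 0.0759). The dimmest, 1372823_at, read 7.78, 7.62, 7.53, 7.60 and 7.42 in PCN livers and 7.73, 7.61, 7.79, 7.58 and 7.25 in corn oil livers. Its groups overlapped fully at a log2 fold change of -0.00, and the difference between both fold changes was 0.39 ± 0.10 (SE; limma adjusted p = 0.366). The third, 1370171_at, had 0.14 with all arrays and 0.27 without corn oil 2, which read 10.12 where the other corn oil arrays read 9.38 to 9.55.

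**Figure D3:**
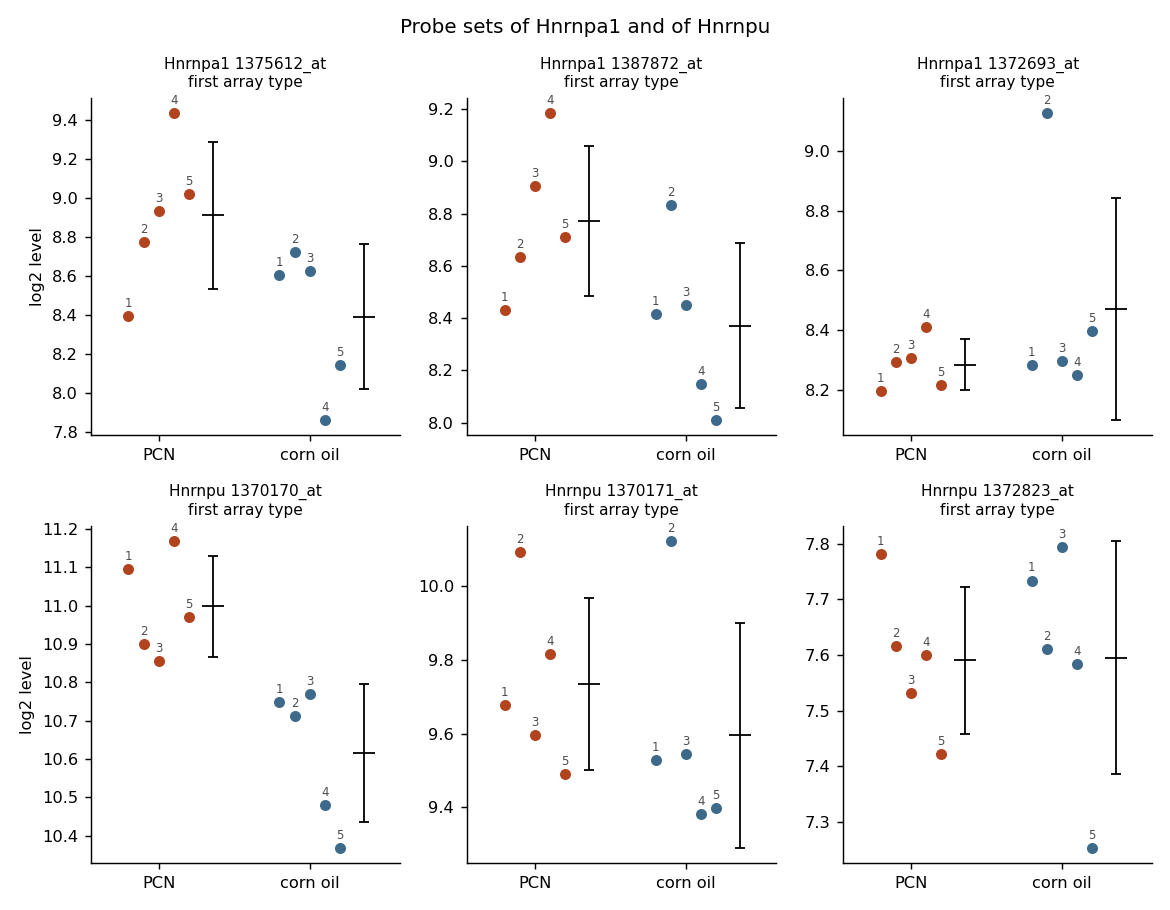
Log2 level on each array of the first type for 3 Hnrnpa1 probe sets (top) and 3 Hnrnpu probe sets (bottom), with the mean and SD of each group as a bar and whiskers. Corn oil 2 is the high point of Hnrnpa1 1372693_at at 9.13 and of Hnrnpu 1370171_at at 10.12, and only Hnrnpu 1370170_at has groups that do not overlap.

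On the second type the 2 member pairs differed less than these Hnrnpa1 and Hnrnpu pairs, which says nothing of the other pairs of that type. The Srsf10 probe sets, for an SR protein that represses splicing when dephosphorylated, had log2 fold changes of -0.13 for 1382052_at and 0.07 for 1386071_at, a difference of -0.20 ± 0.10 (SE; limma adjusted p = 0.214). The Snrpd1 probe sets had 0.02 for 1383107_at and -0.13 for 1379320_at, a difference of 0.15 ± 0.12 (SE; limma adjusted p = 0.504). The pairs of the second type differed in sign, but neither difference exceeded the spread between arrays by the test.

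Among the snRNP proteins the largest log2 fold change belonged to Snrpd3, an Sm core protein. It read 10.41, 9.75, 10.37, 10.42 and 10.49 in PCN livers and 10.12, 9.996, 9.94, 9.54 and 9.61 in corn oil livers on the first type. Only PCN 2 lay among the corn oil arrays, and the log2 fold change of 0.45 ± 0.16 (SE; limma adjusted p = 0.168) became 0.58 (adjusted p = 0.0345) without it and 0.37 to 0.52 (adjusted p of 0.126 to 0.341) without any other single array. Snrpa1, the U2 snRNP A′ protein, had 0.12 ± 0.13 (SE; adjusted p = 0.659), and its probe set had a high array in each group, 7.85 for PCN 4 and 7.57 for corn oil 2. Snrpf, another Sm protein, had 0.16 ± 0.11 on the second type (SE; adjusted p = 0.391). The remaining tested genes, Snrpa and Snrpb2 of the U1 and U2 snRNPs and the Sm genes Snrpb, Snrpd2 and Snrpe, lay between -0.09 and 0.04. Over the class the median gene had a log2 fold change of 0.03 on the first type, with 4 of 7 positive.

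All 8 SF3 genes of the first type had positive log2 fold changes at their brightest probe set, beside 49.6% of all genes. Their median was 0.14, and the sign of Sf3b1 depended on the setting, with values down to -0.07. None was called by limma. At an unadjusted p below 0.05, 3 were higher (37.5%), against 11.1% of all genes. Sf3b5, a small SF3b subunit, read 9.27, 9.41, 9.56, 9.99 and 9.30 in PCN livers and 9.26, 9.33, 9.10, 8.59 and 8.71 in corn oil livers. The groups overlapped because corn oil 2 lay above PCN 1 and PCN 5, and the log2 fold change was 0.51 ± 0.18 (SE; limma adjusted p = 0.149). Sf3b6, which contacts the branch-site adenosine, had 0.23 ± 0.10 (SE; adjusted p = 0.246). Sf3a2 on the second type read 9.83, 9.92, 9.85, 9.81 and 9.79 in PCN livers and 9.63, 9.71, 9.62 and 9.64 in corn oil livers. Its groups did not overlap, but the log2 fold change was 0.19 ± 0.08 (SE; adjusted p = 0.146), and it was -0.07 with quantile normalization.

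Sf3b1, the SF3b subunit that grips the branch helix, was read by a pair of tested probe sets on the first type. The brighter, 1389840_at, had a log2 fold change of 0.01 and 1390234_at had 0.21, a difference of -0.20 ± 0.11 (SE; limma adjusted p = 0.855). The corn oil arrays of 1390234_at lay within 9.35 to 9.38, while its PCN arrays ran from 9.37 to 9.94. Only PCN 3 and PCN 5 stood clearly above the rest.

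Averaged over the member genes, the arrays of both treatments overlapped. On the first type the mean log2 level of the 37 tested genes was 9.76, 9.66, 9.86, 9.95 and 9.82 in PCN livers and 9.70, 9.74, 9.67, 9.55 and 9.57 in corn oil livers. PCN 2 lay below 3 of the corn oil arrays, and without it the median log2 fold change of the members was 0.20 in place of 0.11. On the second type the 16 genes averaged 7.60, 7.46, 7.41, 7.49 and 7.30 in PCN livers and 7.28, 7.37, 7.29 and 7.33 in corn oil livers. Here PCN 5 lay among the corn oil arrays, and the first principal component of all tested probe sets placed the same array closest to the corn oil group, at -3.9 against 10.4 to 18.8 for the other PCN arrays and -15.9 to -8.7 for the corn oil arrays. On the first type that component placed PCN 2 at -2.0, among corn oil values of -17.0 to -0.39, with the other PCN arrays at 9.7 to 28.4. The part of these array differences in the member values was not tested.

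**Figure D4:**
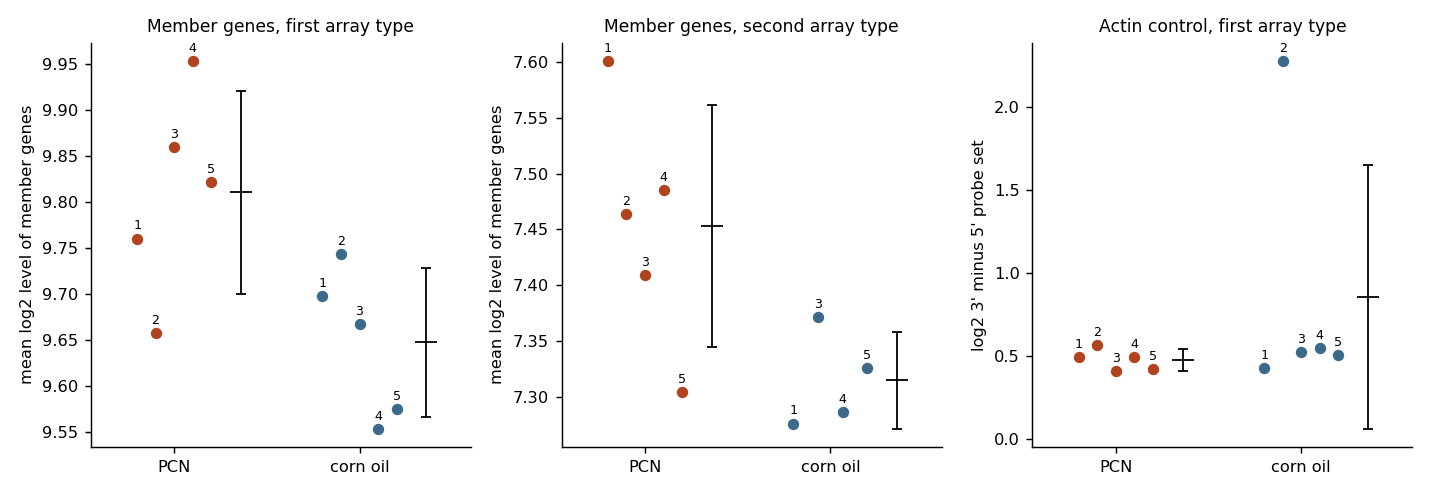
Mean log2 level of the tested member genes on each array of the first type (left) and the second type (middle), and the log2 difference between the 3′ and 5′ actin control probe sets on the first type (right), with the mean and SD of each group as a bar and whiskers. PCN 2 of the first type (9.66) and PCN 5 of the second (7.30) lie within the corn oil range, and corn oil 2 has the actin value of 2.28.

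Brightness differed between members and other genes. On the first type the median member gene had a mean log2 level of 9.997, against 8.78 for all genes, and the median log2 fold change of all probe sets, in 10 equal groups by level, ran between -0.04 and 0.07. On the second type members were no brighter than other genes, at 6.96 against 7.22, while the median log2 fold change of all probe sets reached 0.20 in the brightest of these groups and lay between -0.07 and -0.04 in the 7 dimmest. Srsf4, Sf3a2 and Snrpf lay in that brightest group. The part of the level in these fold changes was not tested.

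**Figure D5:**
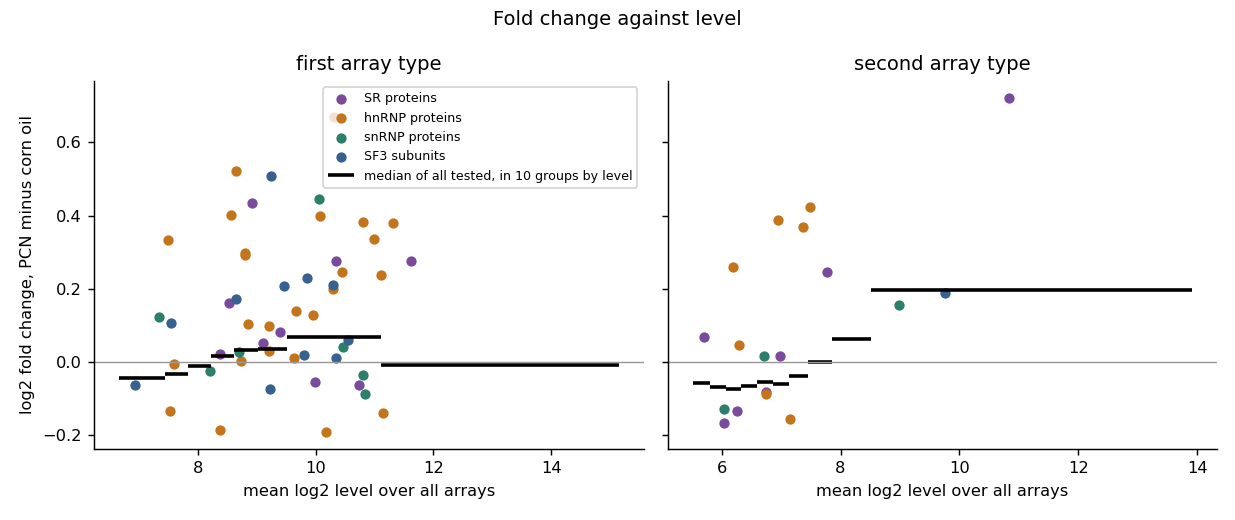
Log2 fold change (PCN minus corn oil) against the mean log2 level over all arrays for the tested member probe sets of each type, coloured by class, with the median of all tested probe sets in each of 10 groups by level as a black line. The line lies near 0 on the first type and rises to 0.20 in the brightest group of the second type, where Srsf4 lies at 0.72.

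Other genes of the splicing machinery were counted from lists of named genes, each gene at its brightest probe set. Among all genes taken that way 2.3% were called higher and 0.979% lower on the first type, and 5.33% and 1.19% on the second. At an unadjusted limma p below 0.05 the shares of all genes were 11.1% higher and 6.69% lower on the first type and 18.3% and 10.6% on the second. Among 52 other spliceosome genes on the first type limma called 0 higher and 0 lower (10 and 0 at an unadjusted p below 0.05), 39 were positive and the median log2 fold change was 0.10. Among 24 on the second type 5 were called higher and 1 lower (6 and 2 at an unadjusted p below 0.05), 16 were positive and the median was 0.14. The second-type counts depended on the scaling, with 2 called higher and 0 lower under quantile normalization, cyclic loess or the replicate block, and with 2 higher, 7 lower and a median of -0.14 when arrays were centred on the common probe sets.

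The calls named next are all of the second type, and on the first type limma called 0 of 52 such genes. Sf1, the branch-point binding protein, rose by 0.57 on the log2 scale (limma adjusted p = 0.00777). It was called in each of the 20 alternatives, with adjusted p up to 0.0391 and a fold change of 0.29 with centring on the common probe sets. U2af1, the small subunit that reads the 3′ splice site, rose by 0.59 (adjusted p = 0.0301). The U2af1 call was lost without PCN 1, PCN 2, PCN 3, corn oil 1 or corn oil 4 and with quantile normalization (0.34, adjusted p = 0.0812), cyclic loess and the replicate block. Puf60, which binds polypyrimidine tracts, rose by 0.50 (adjusted p = 0.0371), and Rnpc3 of the minor spliceosome rose by 0.60 (adjusted p = 0.0476). The Puf60 call was lost without any single array but PCN 5, and with quantile normalization (0.26, adjusted p = 0.129), cyclic loess, common centring and the replicate block. The Rnpc3 call was lost without any single array but PCN 5 and corn oil 1, and with no filter, quantile normalization (adjusted p = 0.0508), cyclic loess and common centring (0.32, adjusted p = 0.0542). The remaining calls were Prpf38b (0.24, adjusted p = 0.0444) and Syf2 (-0.25, adjusted p = 0.0244), both named after their values were seen. The Prpf38b call was lost without any array but PCN 5, and with no filter, the trimmed mean, the replicate block and common centring, where the value was -0.042 (adjusted p = 0.748). The Syf2 call was lost without any array but PCN 2, PCN 5 and corn oil 5, and with quantile normalization, cyclic loess and the replicate block (adjusted p = 0.0749).

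Among exon junction complex genes, limma called 0 of 12 on the first type. At an unadjusted p below 0.05, 3 were higher, against 11.1% of all genes. On the second type 4 of 9 were higher and 1 lower at that level, against 18.3% and 10.6% of all genes. Limma called 1 of these 9, against 5.33% of all genes called higher. This was Sap18, which rose by 0.52 (adjusted p = 0.0438). The Sap18 call was lost without any single array but PCN 5, and with no filter, quantile normalization (0.26, adjusted p = 0.191), cyclic loess, common centring and the replicate block. Among 39 other splicing regulators on the first type 9 were higher and 0 lower at an unadjusted p below 0.05, against 11.1% and 6.69%. Limma called 1 of these 39, against 2.3% of all genes called higher. This was Pcbp1, a poly(C)-binding protein, which rose by 0.34 (adjusted p = 0.029). The Pcbp1 call was lost without PCN 1 (adjusted p = 0.0719), PCN 3 (0.0675), corn oil 1 (0.0563) or corn oil 4 (0.0782), and with the trimmed mean, cyclic loess, common centring (0.26, adjusted p = 0.191) and the replicate block. On the second type 7 of 23 regulators were higher and 1 lower at an unadjusted p below 0.05, against 18.3% and 10.6%. Limma called 1 of these 23, against 5.33% of all genes called higher. This was Tardbp, a UG-binding hnRNP-like protein, which rose by 0.41 (adjusted p = 0.0325). The Tardbp call was lost without any single array but PCN 3 and PCN 5, and with quantile normalization (0.17, adjusted p = 0.219), cyclic loess, common centring (0.13, adjusted p = 0.284) and the replicate block. With common centring the regulators of the second type had 0 called higher, 6 lower and a median of -0.16.

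Of the kinases that phosphorylate SR proteins limma called 0 of 9 on the first type and 0 of 3 on the second. At an unadjusted p below 0.05, 4 kinases were higher on the first type, against 11.1% of all genes, and 0 on the second. Their log2 fold changes were positive in 9 of 9 on the first type, beside 49.6% of all genes, with a median of 0.20. They were positive in 3 of 3 on the second, with a median of 0.17 that was -0.11 with centring on the common probe sets.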

How the data were processed

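Total RNA of adult rat liver was extracted on RNeasy columns with DNase digestion and labelled as biotinylated cRNA, per the labels' protocols. The authors deposited log2 values per probe set, in a table for each of 2 Affymetrix array types. The submitters' processing notes name MAS5 without a version, while background correction, summarization and normalization are not given in the sources used here. Base 2 was inferred from the range of the values, 4.31 to 15.2 in the table of the first type and 3.10 to 14.1 in the other.

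The values were used as deposited. Gene symbols came from the platform annotation, updated by gene identifier through RefSeq (12754 of 12789 single-gene probe sets matched on the first type and 7530 of 7570 on the second). After removal of 57 control probe sets per table and of means below the 30th percentile (6.67 and 5.51), limma 3.58.1 in R 4.3.3 was fitted to 11106 and 10693 probe sets with treatment as the only term and a trend of the variance with level in the moderation. P-values are two-sided and were adjusted by Benjamini and Hochberg's method within a table, and calls were made at 0.05. Pairs of probe sets of a gene were fitted alike, without the trend. The code was tested on simulated data. The number of arrays limits the precision.

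Members and gene lists were chosen with earlier results of these data known. Genes named in full were the called members, the 2 of smallest p in each class without a call, the 3 pairs of smallest p (or their called pairs) and the 2 largest and 2 smallest fold changes per table. From each list up to 4 called genes were named. Genes given beside these, such as Hnrnpf, Hnrnpab, Hnrnpa3, Hnrnph3 and Srsf11, were chosen after their values were seen. Alternatives were other filters, scalings, variance models, array weights, a replicate block and each array left out.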

Additional observations from a re-analysis of the deposited data

Results flagged for a closer look

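Each group of each tested member probe set was examined for 1 array lying far from the rest, and 10 of 140 groups held such an array. An array counted as such when its gap passed Dixon's 95% critical value, which by its definition flags about 5% of groups by chance, and the rate was not measured in these data. Of the 10, 5 were the corn oil 2 array of the first type. Its 3′ minus 5′ control differences were 2.28 (actin), 2.02 (GAPDH) and 0.82 (hexokinase), of which the last lay within the range of the other arrays. That array read 9.13 for Hnrnpa1 1372693_at where the other corn oil arrays read 8.25 to 8.40, and 10.12 for Hnrnpu 1370171_at where they read 9.38 to 9.55. It read 7.57 for Snrpa1 where the others read 7.18 to 7.24. It was low for Hnrnpf, at 8.97 against 10.04 to 10.17, and for Srsf6 1372075_at, at 9.58 against 10.11 to 10.22. The part of RNA quality in these readings was not tested.

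Among the PCN arrays of the first type, PCN 4 read 7.85 for Snrpa1 where the others read 7.18 to 7.37, and 10.43 for Hnrnpa3 1370872_at where they read 9.84 to 9.97. PCN 2 read 9.75 for Snrpd3 where the others read 10.37 to 10.49. On the second type Snrpd1 1383107_at had a low array in each group, 6.49 for PCN 5 against 6.73 to 6.82, and 6.52 for corn oil 4 against 6.75 to 6.79.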

How the results depend on the processing

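The call of Hnrnph1 held under every alternative run, and the calls of Cyp3a23-3a1 and Cyp3a18 held under all 21 of theirs. On the first type 1 member probe set was called in the report. It was 2, of Hnrnph1 and Hnrnpab, with the 50th percentile filter, the trimmed mean, quantile normalization, cyclic loess or no variance trend. It was 10 with array weights, and 1 to 4 when single arrays were left out. With the mean of a gene's probe sets 2 member genes were called on that type. On the second type 2 member probe sets were called in the report, and 1 with no filter, quantile normalization or cyclic loess. The count was 4 with array weights and 0 to 4 when single arrays were left out. With centring on the common probe sets it was 8 (1 higher, 7 lower), including both Snrpd1 probe sets. Over all probe sets of the second type, calls were 577 in the report, 875 with the trimmed mean, 1475 with array weights, 6493 with common centring and 84 to 1477 when single arrays were left out, and on the first type 361, 432, 1051, 466 and 154 to 447. That centring was chosen after seeing the data, and gave a member median of -0.18 beside -0.31 for all probe sets. The share of calls that were higher was 70.9% on the first type (45.9% with common centring) and 69.7% on the second (45.4% trimmed mean, 3.23% common centring, 87.8% common median). Pair calls were 0 under every alternative.

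The labels do not say whether replicate numbers pair the samples, and these values cannot settle it. Deviations of same-numbered arrays correlated at -0.30 to 0.28 on the first type and 0.02 to 0.20 on the second. With the replicate block 1 member was called on the first type (239 of all probe sets) and 0 on the second (203), where PCN 2 has no partner and adds nothing; Srsf4 had an adjusted p of 0.100 and Hnrnpa2b1 0.0985.

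Several fold changes changed sign, and the cause was not tested. Negative member probe sets were 22 of 52 on the first type and 14 of 18 on the second with common centring, against 12 and 6 in the report. With common median, trimmed mean, quantile, loess, common centring and array weights Hnrnpa2b1 1373540_at was -0.0021, -0.038, -0.048, -0.023, -0.076 and -0.038, and without single arrays -0.022 to 0.027. With trimmed mean, quantile, loess and common centring Hnrnpa2b1 1398883_at was -0.012, -0.016, -0.016 and -0.049 (without single arrays -0.010 to 0.080), and Sf3b1 1389840_at was -0.032, -0.072, -0.042 and -0.070 (-0.072 to 0.092). Hnrnpu 1372823_at was 0.0057, 0.019 and 0.054 with quantile, loess and array weights (-0.090 to 0.045). Snrpd1 1383107_at was -0.039 with the trimmed mean and -0.26 with common centring (-0.044 to 0.074). With quantile and common centring Sf3a2 was -0.065 and -0.090 (-0.013 with loess) and Snrpf -0.048 and -0.12. Common centring gave Srsf10 1386071_at -0.21, Srsf11 -0.033 and Hnrnph3 -0.018 on the second type, and Prpf38b, called in the report, -0.042. The number of arrays and low signal, as for Srsf10 on the first type, limit what can be seen.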

Other observations

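Probe sets annotated to a family gene and at least 1 other gene were left out of the members. Limma called 0 of the 8 tested and had 1 at an unadjusted p below 0.05. At that level 11% of all probe sets were higher and 6.71% lower on the first type, and 13.2% and 14.1% on the second. The probe set 1395561_at of the second type, annotated to Hnrnpa1-ps33 and Hnrnpa2b1, read 10.28, 10.36, 9.91, 10.04 and 10.05 in PCN livers and 9.74, 9.88, 9.81 and 9.78 in corn oil livers. Its groups did not overlap, as for 5.06% of all tested probe sets of that type that were higher. The log2 fold change was 0.32 ± 0.11 (SE; limma adjusted p = 0.0866), beside 0.39 for the single-gene Hnrnpa2b1 probe set of that type. The pair of Hnrnpk probe sets of the first type, which also match a pseudogene, had log2 fold changes of 0.12 and 0.12. The pair that matches Srsf3 and another locus had 0.14 and -0.11, beside -0.17 for the Srsf3 probe set of the second type.

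The Srsf7 probe set 1391149_at of the second type was too dim to be tested, with 3.92, 3.92, 3.64, 3.68 and 3.91 in PCN livers and 4.21, 3.94, 3.99 and 3.94 in corn oil livers. The groups did not overlap at these levels, whereas the tested probe set 1380391_at had a log2 fold change of -0.08. The 3 Srsf10 probe sets of the first type were also below the filter.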
